A study of Mus musculus with 14 samples.

Results

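The genes described here encode ligands and receptors of the epidermal growth factor (EGF) family and a feedback inhibitor of the receptors, in whole uterus of pregnant mice. The members were the probe sets whose single gene symbol in the array's annotation was Hbegf, Ereg, Btc, Tgfa, Egf, Nrg1, Egfr, Erbb2, Erbb3 or Errfi1. These 10 genes had 22 of the 45037 probe sets that were not controls. Of the 22 probe sets, 11 of 6 genes had a mean log2 signal at or above the median of all probe sets, a signal of 134, and entered the tests over 22519 probe sets.

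The uteri came from C57BL/6 females at day 3.5 of gestation, 14 one-colour Affymetrix arrays in all. The groups were Folr4-/- with folinic acid (KO folinic acid, n = 4), Folr4-/- with saline (KO saline, n = 3), wild type with folinic acid (WT folinic acid, n = 3) and wild type with saline (WT saline, n = 4). Folinic acid, a reduced folate, was given at 12.5 mg/kg in 2 intraperitoneal injections, 10 and 3 days before mating, and all females shared the C57BL/6 background and a chow diet. The series asks whether genotype changes the response of the uterus to folate given before conception. The females were homozygous for the mutation, with no tissue-restricted driver named, and RNA came from the undivided uterus, so fewer cells of a type and less RNA per cell cannot be told apart. The labels call the replicates biological and do not say more of their origin.

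EGF family ligands are made as membrane proteins, cut free by metalloproteases, and bind Egfr or the related receptors Erbb3 and Erbb4. Erbb2 has no known ligand and acts as the partner of the other receptors, while Erbb3 has little kinase activity of its own and signals through its partner. In the mouse uterus this family is known for its part around implantation: Hbegf is made by luminal epithelium next to the blastocyst, and Areg, Ereg and Btc follow in epithelium or stroma close to the attachment site. Errfi1, also called Mig6, binds the kinase domain of Egfr and Erbb2 and shuts it down, and in mice it is a target of progesterone in the uterus.

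Median signals of the arrays ran from 129.98 to 157, and each array's Spearman correlation with the rest averaged 0.932 to 0.953. The 3-prime to 5-prime ratio of the actin control probe sets, which reflects RNA quality, was 1.54 to 3.12 in KO folinic acid, 2.11 to 3.01 in KO saline, 1.68 to 2.42 in WT folinic acid and 1.72 to 3.64 in WT saline arrays. The highest ratio was that of WT saline replicate 3, an array that also held the highest or lowest value of several members. The probe set of Folr4, now named Izumo1r, was below the filter, and its difference of KO minus WT, averaged over injections, was -1.02 ± 0.62 (SE) on the log2 scale (limma without the filter, adjusted p = 0.9998), so it does not check the genotype labels. The tissue's own markers were present: all 12 stroma markers, all 10 smooth muscle markers and 15 of 16 epithelium markers were measured above the filter, with Col3a1 and Dcn, Acta2 and Tagln, and Krt8 and Krt18 the brightest of each list. Of the oviduct and ovary markers 3 of 7 were above it, with Ovgp1, an oviduct secretory gene, the brightest.

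The promoters of Errfi1 and Egfr are shown because these are members with probe sets above the filter whose groups did not overlap, among those whose window was searched. Not every chromosome was searched for windows of the members. The windows run from 250 bases before to 50 bases after an annotated start (RefSeq, build GRCm38.p6), and 6 of the 10 members had 8 searched windows between them. Hbegf, Ereg, Nrg1 and Erbb3 are named only. The Errfi1 window lies at chr4:150854820-150855119 on the plus strand and the Egfr window at chr11:16751953-16752252 on the plus strand. Capitals mark the cyclic AMP response element TGACGTCA, the GC box GGGCGG (here on the minus strand, written CCGCCC) and TATAAA, each searched on both strands.
Errfi1: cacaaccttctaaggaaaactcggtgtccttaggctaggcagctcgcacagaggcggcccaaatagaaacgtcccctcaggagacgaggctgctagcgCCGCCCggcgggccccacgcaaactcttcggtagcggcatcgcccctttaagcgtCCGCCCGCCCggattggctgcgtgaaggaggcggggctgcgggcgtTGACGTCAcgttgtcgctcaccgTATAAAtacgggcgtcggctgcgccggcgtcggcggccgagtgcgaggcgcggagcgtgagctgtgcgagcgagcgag
Egfr: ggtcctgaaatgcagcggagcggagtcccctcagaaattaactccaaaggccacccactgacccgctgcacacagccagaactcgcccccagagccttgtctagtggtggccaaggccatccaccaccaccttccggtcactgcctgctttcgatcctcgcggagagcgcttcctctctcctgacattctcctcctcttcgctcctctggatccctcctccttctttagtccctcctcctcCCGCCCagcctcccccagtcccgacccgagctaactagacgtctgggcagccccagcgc
The Errfi1 window held 1 cyclic AMP response element beginning 51 bases before the start, 1 TATAAA 28 bases before it and 3 GC boxes, of which the pair at -97 and -93 overlap. It was 66.7% G or C, with 41 CpG pairs, against a median of 52.7% G or C over all 32851 windows. The Egfr window held 1 GC box, at -9, and neither of the other motifs. Over all windows, 1.79% held the cyclic AMP response element, 35.7% the GC box and 13.6% TATAAA. A second Errfi1 window, at chr4:150853546-150853845, held none of them. A match or its absence describes only the letters in the window.

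Among the member probe sets above the filter, an Errfi1 one had the widest range over the arrays, 8.46-fold, and Errfi1 had, in KO saline against WT saline and WT folinic acid against WT saline, the lowest p. Its brighter probe set, 1416129_at, read 10792, 4024, 8181 and 3906 in KO folinic acid uteri and 6016, 11048 and 6747 in KO saline uteri. It read 6472, 10531 and 5321 in WT folinic acid uteri and 5141, 3482, 2839 and 5606 in WT saline uteri. The WT saline arrays were the lowest group, all under the KO saline arrays, and overlapped the WT folinic acid arrays by 1 value. The group means were 6726 ± 3362 (SD, n = 4) in KO folinic acid, 7937 ± 2719 (SD, n = 3) in KO saline, 7441 ± 2737 (SD, n = 3) in WT folinic acid and 4267 ± 1318 (SD, n = 4) in WT saline. Within groups the SD of its log2 signal was 0.57, at percentile 92.1 of all probe sets above the filter.

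KO saline minus WT saline was 0.90 ± 0.37 (SE) on the log2 scale for this Errfi1 probe set, a 1.86-fold difference with a 95% interval of 1.08 to 3.20. Its unadjusted p was under 0.05, and the adjusted p from limma over all probe sets was 0.9998, so the difference did not pass. WT folinic acid minus WT saline was 0.80 ± 0.37 (limma, adjusted p = 0.999995). In the mutants folinic acid minus saline was -0.33 ± 0.37, and under folinic acid KO minus WT was -0.22 ± 0.37. The interaction, the response to folinic acid in KO minus that in WT, was -1.12 ± 0.52 with a 95% interval of -2.23 to -0.02 (limma, adjusted p = 0.905). These comparisons share groups: the low WT saline arrays enter the genotype difference under saline, the response in WT and the interaction. The 2 lowest, replicates 2 and 3, share a number in their sample titles, as do WT folinic acid replicates 1 and 2. Whether such arrays are related is not stated. Leaving out 1 array at a time gave 0.63 to 1.07 for KO saline minus WT saline, lowest without KO saline replicate 2, and the unadjusted p was then over 0.05. WT folinic acid minus WT saline ranged from 0.51 without WT folinic acid replicate 2 to 1.01 without WT folinic acid replicate 3. The interaction ranged from -1.40 to -0.84, closest to 0 without WT folinic acid replicate 2.

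The second Errfi1 probe set, 1419816_s_at, followed the first across the 14 arrays with a Pearson r of 0.887. It read 4643, 737, 2007 and 1349 in KO folinic acid and 1005, 2099 and 1679 in KO saline arrays. It read 2352, 4661 and 1774 in WT folinic acid and 1337, 658, 551 and 1432 in WT saline arrays. Every WT folinic acid array was above every WT saline array, and the means differed by 1.56 ± 0.52 on the log2 scale or 2.95-fold, with a 95% interval of 1.36 to 6.397. This ranked at 89 among the p-values of this comparison, the foremost rank of any member in it, and it did not pass over all probe sets (limma, adjusted p = 0.999995). In the mutants the same difference was 0.19 ± 0.52, and the interaction was -1.36 ± 0.74 (limma, adjusted p = 0.905). KO saline minus WT saline was 0.74 ± 0.52 here, and the groups overlapped. Averaged over genotypes, folinic acid minus saline was 0.88 ± 0.37 (limma, adjusted p = 0.491). Without WT folinic acid replicate 2, the brightest of its group, the difference in WT was 1.16, and with the actin ratio as a covariate it was 1.31.

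**Figure D1:**
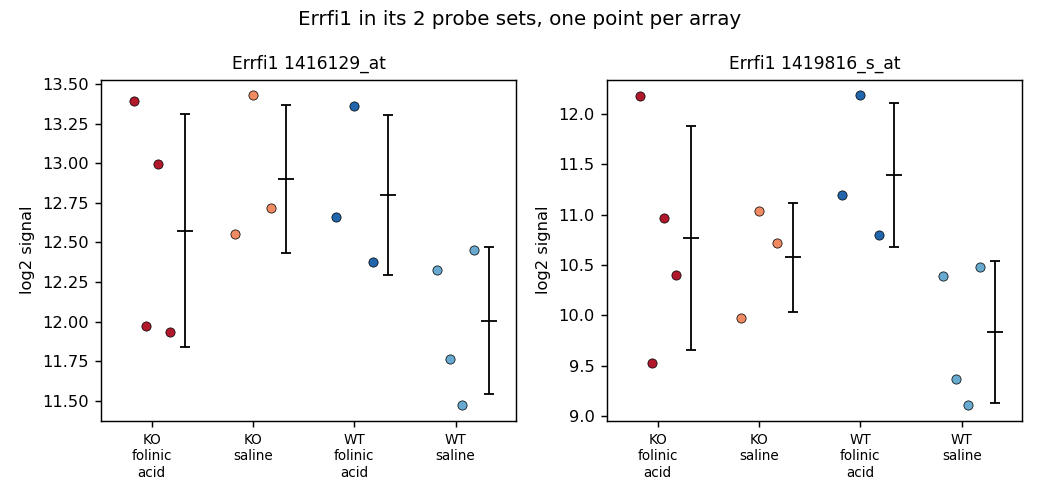
Log2 signal of both Errfi1 probe sets on each array by group, 1 point an array, with the group mean and SD beside the points. WT saline has the lowest mean in both panels, its arrays lying between 2839 and 5606 for 1416129_at and between 551 and 1432 for 1419816_s_at, and the KO folinic acid arrays spread the most.

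Among the ligands, Hbegf and Tgfa were above the filter. Hbegf encodes heparin-binding EGF-like growth factor, and its brighter probe set, 1418350_at, read 443, 442, 346 and 685 in KO folinic acid and 446, 438 and 585 in KO saline uteri. It read 502, 480 and 666 in WT folinic acid and 564, 445, 839 and 367 in WT saline uteri. The 4 groups overlapped throughout. KO folinic acid minus KO saline was -0.06 ± 0.27, KO saline minus WT saline -0.12 ± 0.27, KO folinic acid minus WT folinic acid -0.23 ± 0.27 and WT folinic acid minus WT saline 0.04 ± 0.27. For the first of these the 95% interval ran from 0.64-fold to 1.43-fold, so a change within that range, in either direction, is not excluded by this probe set.

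The second Hbegf probe set, 1418349_at, gave another picture in the mutants. It read 201, 301, 224 and 326 in KO folinic acid, against 199, 151 and 186 in KO saline uteri, so the groups did not overlap. The difference was 0.54 ± 0.24 or 1.45-fold, with a 95% interval of 1.02 to 2.07 (limma, adjusted p = 0.367). It read 231, 256 and 209 in WT folinic acid and 174, 212, 321 and 200 in WT saline uteri, a difference of 0.07 ± 0.24. The interaction was 0.47 ± 0.34 (limma, adjusted p = 0.916). The pair of Hbegf probe sets correlated at r = 0.419 across the arrays, and their differences in the mutants had opposite signs. Which transcripts each detects was not tested.

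Tgfa encodes transforming growth factor alpha, a ligand of Egfr. Its probe set above the filter, 1421943_at, read 381, 238, 301 and 447 in KO folinic acid and 273, 351 and 349 in KO saline uteri. It read 298, 284 and 360 in WT folinic acid and 291, 278, 422 and 256 in WT saline uteri. The groups overlapped, and the differences lay between 0.03 and 0.09 in the 4 pairwise comparisons, each with a SE of 0.23. The interaction was 0.01 ± 0.33, with a 95% interval of 0.62-fold to 1.64-fold.

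The remaining ligands, Ereg, Btc, Egf and Nrg1, had no probe set above the filter, and their values are given from a fit without it over 45037 probe sets. Ereg, which encodes epiregulin, ranged from 2.84 to 61.8 over the 14 arrays, a 21.8-fold range with no order by group. The brighter Btc probe set, for betacellulin, lay between 79.9 and 136 on all arrays with pairwise differences between -0.19 and 0.21, and the dimmer one ranged from 1.87 to 59.9. Egf, the founding ligand, averaged 45.8 ± 14.7 (SD, n = 4) in KO folinic acid and 40.0 ± 23.0 (SD, n = 3) in KO saline uteri. It averaged 63.5 ± 11.2 (SD, n = 3) in WT folinic acid and 40.9 ± 14.9 (SD, n = 4) in WT saline uteri, and WT folinic acid minus WT saline was 0.70 ± 0.52 (limma without the filter, adjusted p = 0.99997). Nrg1, for neuregulin 1, a ligand of Erbb3 and Erbb4, ranged from 2.16 to 76.7. Differences in these probe sets were not detectable at this signal, which is not a statement that the transcripts were absent. The other Tgfa probe sets were also below the filter. The first, 1450421_at, lay between 40.3 and 152 and the groups overlapped. The last, 1421942_s_at, read 50.2, 15.1, 18.7 and 57.9 in KO folinic acid, against 96.3, 84.0 and 79.0 in KO saline uteri, with no overlap. That difference was -1.52 ± 0.72 (limma without the filter, adjusted p = 0.489), while the bright Tgfa probe set gave 0.04 ± 0.23.

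**Figure D2:**
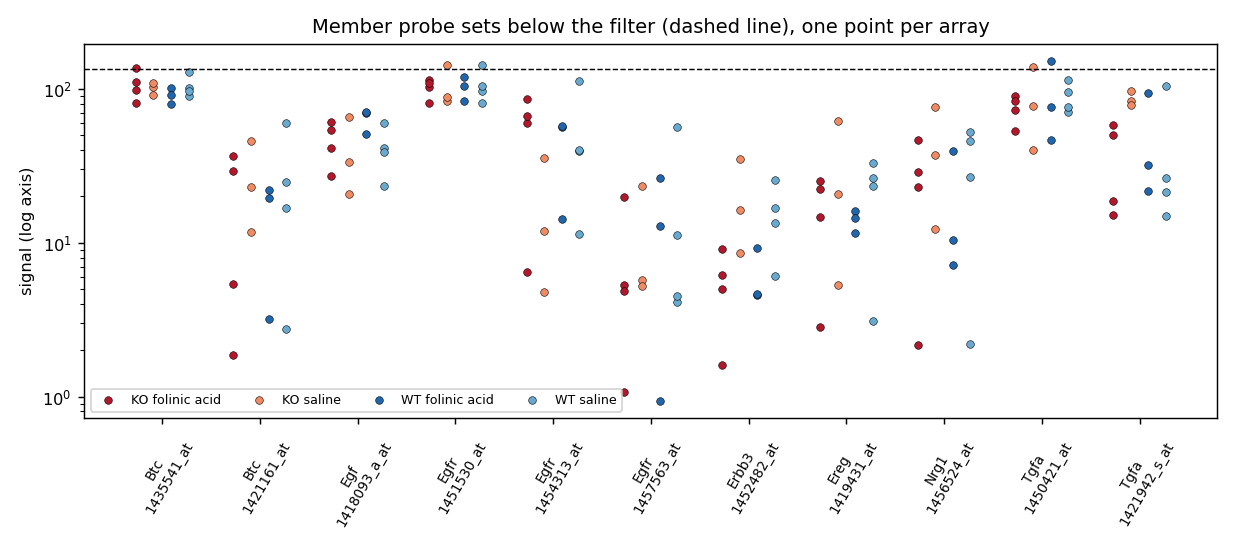
Signal, on a log axis, of the member probe sets below the filter by group, 1 point an array. The dashed line is the filter, a signal of 134. The points of Ereg and Nrg1 spread over more than a 20-fold range within the 14 arrays, and the brighter Btc probe set stays between 79.9 and 136.

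Egfr encodes the EGF receptor, and 4 of its 7 probe sets were above the filter. The brightest, 1435888_at, read 1965, 1694, 2441 and 1422 in KO folinic acid and 2474, 2516 and 1837 in KO saline uteri. It read 2883, 2351 and 1596 in WT folinic acid and 2134, 2313, 1309 and 1790 in WT saline uteri. The groups overlapped, with a difference of -0.29 ± 0.24 for folinic acid in KO and 0.26 ± 0.24 for folinic acid in WT. The interaction was -0.55 ± 0.34, with a 95% interval of 0.41-fold to 1.13-fold (limma, adjusted p = 0.905). KO saline minus WT saline was 0.29 ± 0.24 and KO folinic acid minus WT folinic acid was -0.26 ± 0.24.

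Egfr 1424932_at, which tracked the brightest probe set with r = 0.789, read 708, 774, 817 and 416 in KO folinic acid, against 977, 1207 and 834 in KO saline uteri. The groups did not overlap, and the difference was -0.60 ± 0.27 or 0.661-fold, with a 95% interval of 0.447 to 0.978 (limma, adjusted p = 0.364). It read 1159, 754 and 618 in WT folinic acid and 980, 936, 616 and 967 in WT saline uteri, a difference of -0.08 ± 0.27. The interaction was -0.52 ± 0.38 (limma, adjusted p = 0.916). Without KO folinic acid replicate 4, the lowest array, the difference in the mutants was -0.38.

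The third Egfr probe set, 1460420_a_at, read 431, 525, 419 and 358 in KO folinic acid and 531, 690 and 454 in KO saline uteri. It read 683, 465 and 430 in WT folinic acid and 663, 689, 687 and 523 in WT saline uteri. Folinic acid minus saline, averaged over genotypes, was -0.33 ± 0.14 or 0.795-fold, with a 95% interval of 0.642 to 0.984 (limma, adjusted p = 0.500). The same averaged difference was -0.34 ± 0.19 for 1424932_at and -0.01 ± 0.17 for 1435888_at. The 4 Egfr probe sets therefore differed among themselves, and 1432647_at even correlated negatively with the brightest (r = -0.553). That probe set read 541 on WT saline replicate 3, the array with the highest actin ratio, and between 135 and 416 on the others. The 3 Egfr probe sets below the filter were at 143 or less on every array.

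Erbb2 encodes the receptor without a ligand of its own. Its only probe set read 339, 642, 372 and 622 in KO folinic acid and 434, 655 and 580 in KO saline uteri. It read 581, 430 and 584 in WT folinic acid and 509, 559, 714 and 490 in WT saline uteri. The groups overlapped in every comparison, and the differences ran from -0.21 ± 0.25, for folinic acid in KO, to -0.03 ± 0.25, for KO saline minus WT saline. The 95% interval for folinic acid in KO was 0.599-fold to 1.24-fold.

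Erbb3 encodes the receptor for neuregulins. Its bright probe set, 1434606_at, read 834, 996, 643 and 1970 in KO folinic acid and 1169, 782 and 1520 in KO saline uteri. It read 936, 879 and 1306 in WT folinic acid and 739, 1214, 1408 and 937 in WT saline uteri. The spread lay within the groups: the within-group SD was 0.51 on the log2 scale, at percentile 88.6 of all probe sets above the filter, and the pairwise differences were between -0.14 ± 0.34 and 0.10 ± 0.34. The dim Erbb3 probe set, 1452482_at, read 1.61, 6.22, 9.05 and 5.04 in KO folinic acid, against 16.4, 35.3 and 8.60 in KO saline uteri, a difference of -1.89 ± 0.81 (limma without the filter, adjusted p = 0.439). It correlated with the bright one at r = -0.120. Erbb4, the receptor that completes the family, read between 0.915 and 39.9 with its single probe set, below the filter, and Areg, for amphiregulin, was not analysed here.

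**Figure D3:**
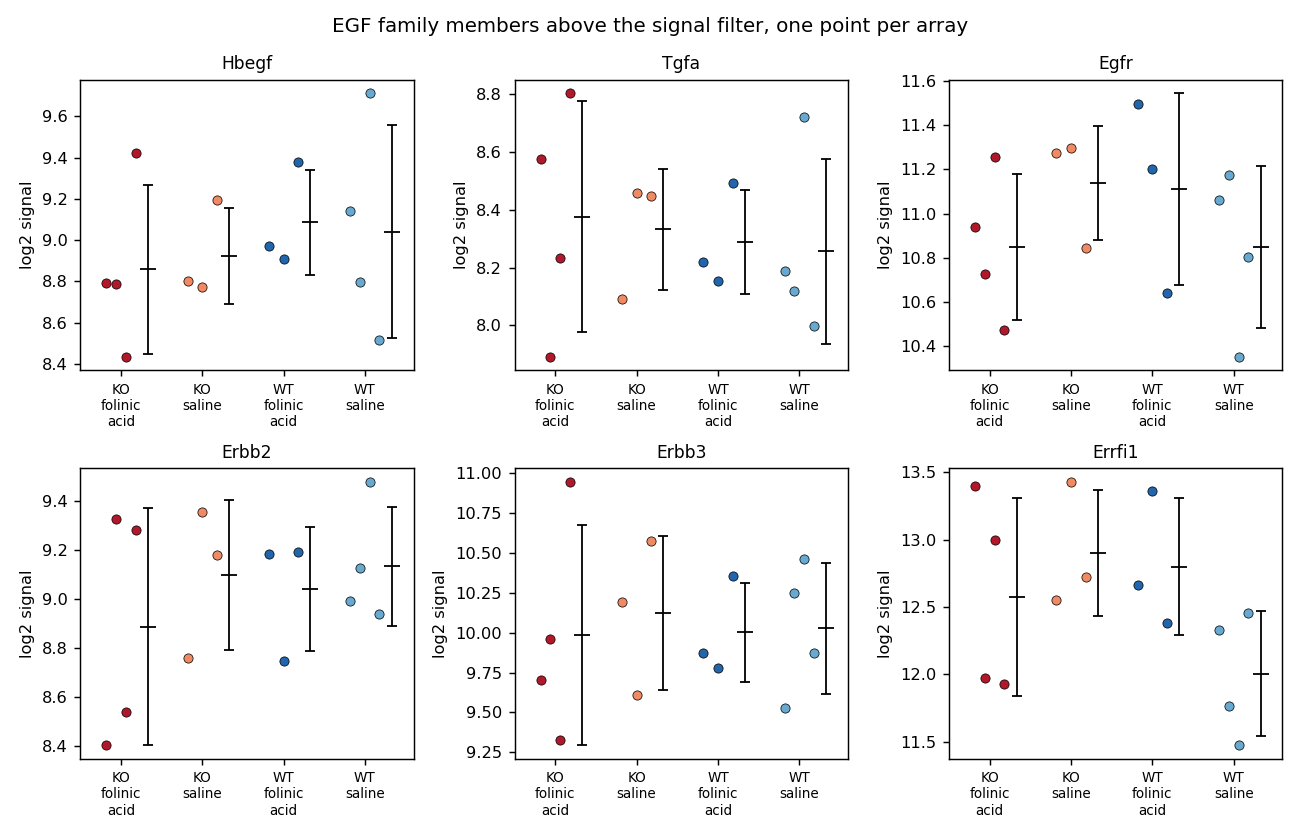
Log2 signal of the 6 members above the filter, each through its brightest probe set, by group, with 1 point an array and the group mean and SD beside the points. The groups overlap in every panel except for Errfi1, where the 3 KO saline arrays, from 6016 to 11048, lie above the 4 WT saline arrays, from 2839 to 5606.

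No member passed an adjusted p of 0.05 in any of the 7 comparisons, and few probe sets of any gene did. For KO saline against WT saline, 0 of 11 member probe sets were called and 0.00444% of all tested were, while 1 of 11 had an unadjusted p under 0.05 (Errfi1 1416129_at), against 3.11% of all. For KO folinic acid against WT folinic acid the counts were 0 and 0 of 11, against 0.00444% and 3.81% of all. For WT folinic acid against WT saline they were 0 and 2 of 11, both of them Errfi1, against 0% and 2.71%. For KO folinic acid against KO saline they were 0 and 2 of 11, 1 of Hbegf and 1 of Egfr, against 0% and 12.8%. This comparison had the most probe sets past the unadjusted threshold in the whole table, 2887 of 22519, so 2 of 11 member probe sets stand near that background. Without KO folinic acid replicate 2, 662 of 22519 probe sets passed the adjusted threshold in it, and 0 of the 11 member probe sets did. At so small a share of all probe sets, 0 of 11 is near the background.

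For the interaction the counts were 0 and 1 of 11 (Errfi1), against 0% and 4.9% of all probe sets. For KO against WT averaged over injections they were 0 and 0 of 11, against 0.00444% and 2%, and for folinic acid against saline averaged over genotypes they were 0 and 2 of 11 (Egfr and Errfi1), against 0.00444% and 9.21%. Over the 7 comparisons, 8 of 77 member values had an unadjusted p under 0.05 in limma, and the lowest adjusted p was 0.364. The shares of all probe sets ran from 2% to 12.8% by comparison. The 77 values are not separate, since the comparisons share groups, and most of the 8 came from the 2 correlated Errfi1 probe sets. Groups did not overlap for 1, 0, 1 and 2 of 11 probe sets, in KO saline against WT saline, KO folinic acid against WT folinic acid, WT folinic acid against WT saline and KO folinic acid against KO saline. The shares of all probe sets in those comparisons were 4.42%, 4.94%, 4.96% and 10.3%. Taking 1 probe set for each of the 6 genes, the median difference was 0.09, -0.19, 0.04 and -0.18 in the same order, and the medians of all probe sets were -0.02, -0.01, 0.01 and 0.01.

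**Figure D4:**
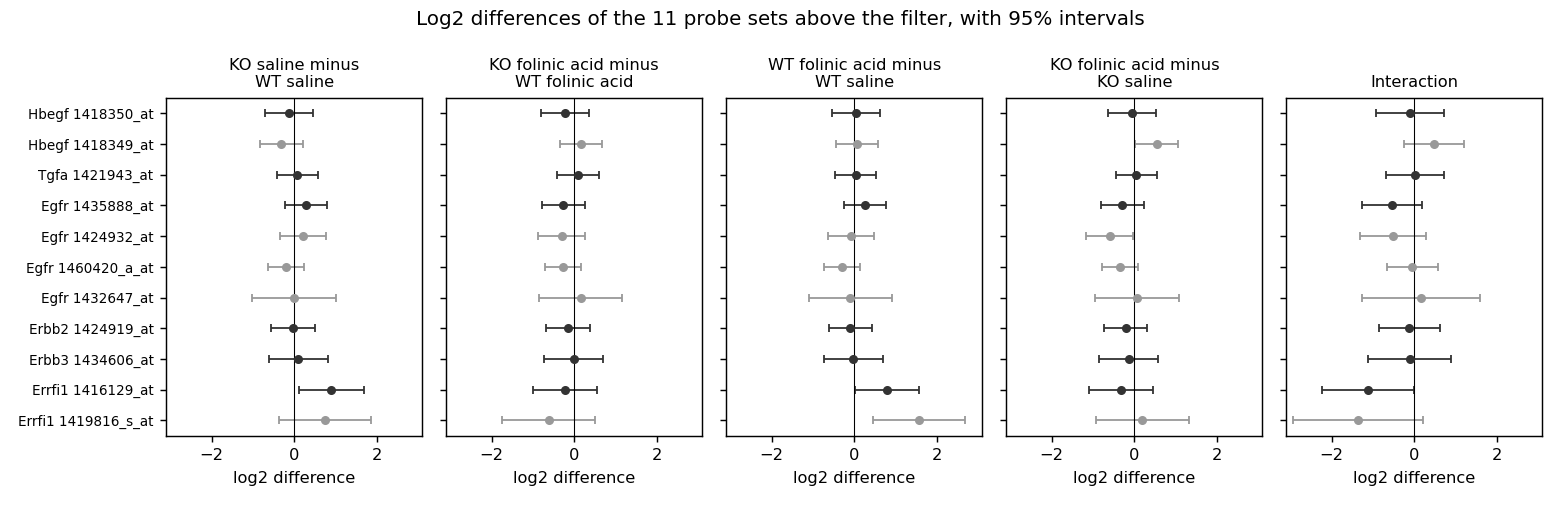
Log2 differences with 95% intervals for the probe sets of the 6 members above the filter, in the 4 pairwise comparisons and the interaction. Black marks the brightest probe set of a gene and grey the others. Most intervals cross 0, and the intervals that do not are those of Errfi1 and single probe sets of Hbegf and Egfr.

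Across the 14 arrays, irrespective of group, the correlations of the 6 members above the filter had both signs. Hbegf, Tgfa, Erbb2 and Erbb3 had positive correlations with each other, and Hbegf, Erbb2 and Erbb3 had negative ones with Egfr and Errfi1. Hbegf and Erbb3 had r = 0.694 (Spearman rho 0.662, permutation p = 0.00582, adjusted p over 15 pairs = 0.0467). Hbegf and Tgfa had r = 0.690 (rho 0.534, permutation p = 0.00623, adjusted p = 0.0467), and Hbegf and Egfr had r = -0.650 (rho -0.486, permutation p = 0.0122, adjusted p = 0.0495). Egfr and Errfi1, receptor and inhibitor, had r = 0.593 (rho 0.626, permutation p = 0.0264, adjusted p = 0.0495), and Erbb3 and Errfi1 had r = -0.602 (rho -0.596, permutation p = 0.0238, adjusted p = 0.0495). In all, 8 of 15 pairs passed with Pearson's r, 0 passed with Spearman's rho, where the lowest adjusted p was 0.0923, and 7 passed on deviations from the group means. Egfr and Errfi1 were not among these 7 (r = 0.543, permutation adjusted p = 0.0628). The p-values on deviations are somewhat too low, because the permutations did not allow for the group means taken out. Each gene entered through its brightest probe set only, and those of Egfr differed among themselves.

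The adjusted p of the 8 pairs lay between 0.0467 and 0.0495, close to the threshold. Without the 2 arrays farthest from the median of the first gene, which for Hbegf were WT saline replicate 3 and KO folinic acid replicate 4, 0 of 15 pairs passed over the 12 arrays left. Hbegf and Erbb3 then had r = 0.548 (permutation p = 0.0649), Hbegf and Egfr r = -0.305 (permutation p = 0.333) and Egfr and Errfi1 r = 0.327 (permutation p = 0.298). Erbb3 and Errfi1 had r = -0.683 without KO saline replicate 3 and KO folinic acid replicate 4 (permutation p = 0.0155, adjusted p = 0.232), against -0.602 with all arrays. Leaving out 1 array at a time, r lay between -0.676 and -0.557 for Erbb3 and Errfi1 and between 0.620 and 0.785 for Hbegf and Erbb3. Leaving out 1 array at a time left between 0 and 8 pairs past the threshold, and 0 without KO folinic acid replicate 3 or 4, KO saline replicate 1 or 3, WT folinic acid replicate 2 or 3, or WT saline replicate 3. The labels name no batch that would allow values within batches.

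Epithelium markers moved with the same arrays. The mean log2 signal of 15 epithelium markers, among them Krt8, Krt18 and Epcam, was 10.8 to 11.5 in KO folinic acid, 11.01 to 11.3 in KO saline, 10.9 to 11.4 in WT folinic acid and 10.7 to 11.5 in WT saline uteri. Erbb3 followed it with r = 0.863 (rho 0.855, permutation p = 8.00e-05, adjusted p over 18 relations = 0.00144), a relation looked for after the data had been seen. Without WT saline replicate 3 and KO folinic acid replicate 4, the 2 arrays farthest from the median of the markers, r was 0.792 (permutation p = 0.00243, adjusted p = 0.0437), and on deviations from group means it was 0.865. On the signals themselves the other members did not pass: Hbegf had r = 0.689 with the epithelium markers (rho 0.613, permutation p = 0.00667, adjusted p = 0.0600), Erbb2 0.556, Tgfa 0.513, Errfi1 -0.547 and Egfr -0.626. On deviations from group means 4 of 18 relations passed, all with the epithelium markers: beside Erbb3 they were Errfi1 with r = -0.778 (permutation adjusted p = 0.0109), Egfr with -0.760 (permutation adjusted p = 0.0110) and Hbegf with 0.727 (permutation adjusted p = 0.0158). These p-values too are somewhat low, since the permutations did not allow for the group means taken out. With 12 stroma markers the correlations lay between -0.25 and 0.39, and with 12 genes of tissue handling between -0.40 and 0.47. The part of the epithelial share of each sample in the members' relations was not tested.

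**Figure D5:**
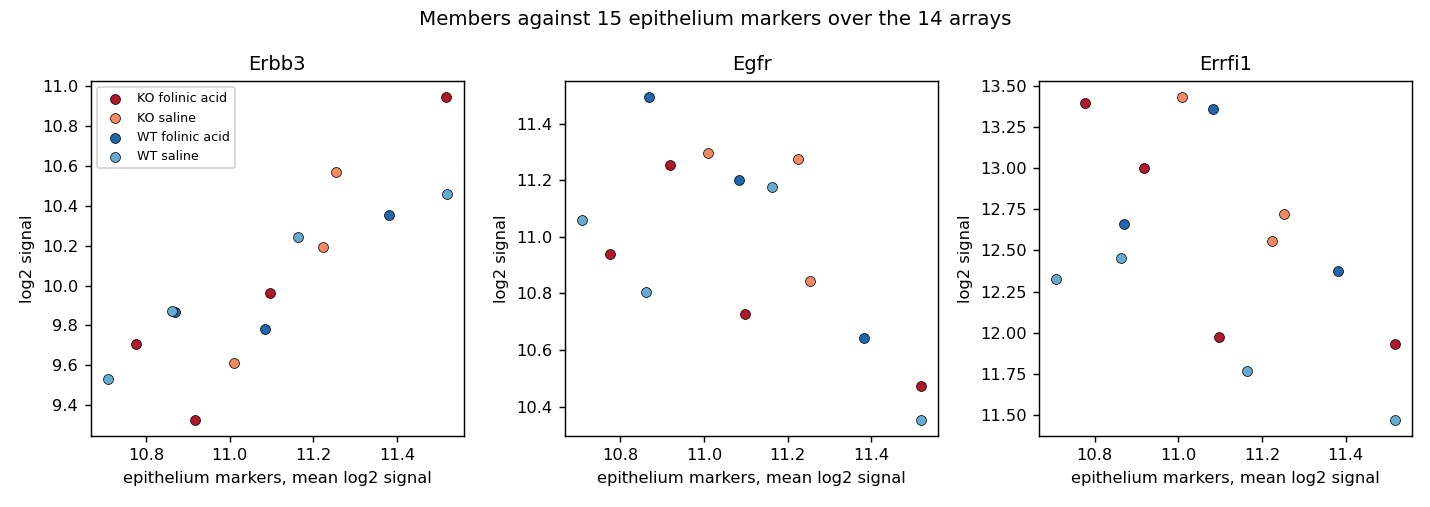
Log2 signal of Erbb3, Egfr and Errfi1 on each array against the mean log2 signal of 15 epithelium markers, with the group of each array marked. Erbb3 is high where the epithelium markers are high (r = 0.863, n = 14) while Egfr (r = -0.626) and Errfi1 (r = -0.547) tend to be low there.

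Of the other ligands and receptor of the family, Nrg2 and Nrg4 were above the filter out of 6 listed, and neither passed. Nrg4, for a neuregulin that binds Erbb4, had a mean log2 signal of 6.82 in KO folinic acid and 7.61 in KO saline uteri. The difference was -0.79 ± 0.23 (limma, adjusted p = 0.209), with -0.76 ± 0.23 for KO folinic acid minus WT folinic acid and -1.07 ± 0.33 for the interaction (limma, adjusted p = 0.905). Nrg2 differed by 0.08 ± 0.38 in the first of these.

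Of 12 genes for shedding of the ligands, 11 were measured and 0 passed. The median differences were 0.12 for KO saline minus WT saline, 0.06 for KO folinic acid minus WT folinic acid, 0.15 for WT folinic acid minus WT saline and 0.16 for KO folinic acid minus KO saline. Adam19, a membrane metalloprotease, had 0.65 ± 0.21 for folinic acid in KO (limma, adjusted p = 0.249) and 0.03 ± 0.21 in WT. Cd9, a tetraspanin that associates with the membrane form of Hbegf, had -0.51 ± 0.18 for folinic acid in KO (limma, adjusted p = 0.270) and 0.45 ± 0.18 for KO saline minus WT saline (limma, adjusted p = 0.9998). Rhbdf1, an inactive rhomboid that escorts Adam17, had 0.27 ± 0.12 in KO (limma, adjusted p = 0.367), Rhbdf2 0.24 ± 0.39, Adam12 -0.67 ± 0.37 and Adam15 0.16 ± 0.19. These genes were named for other comparisons. Rhbdf2 and Adam12 had the lowest p of the list in KO folinic acid against WT folinic acid. Adam15 and Rhbdf1 had it in WT folinic acid against WT saline, and Adam15 was also among the lowest in KO saline against WT saline.

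Of 30 adaptors and kinases that carry the receptors' signal, 23 were measured and 0 passed, with median differences between -0.05 and 0.08 in the 4 pairwise comparisons. Braf, a kinase of the MAP kinase cascade, had -0.62 ± 0.23 for folinic acid in KO (limma, adjusted p = 0.291) and -0.35 ± 0.23 in WT. Nras, a small GTPase, had 0.36 ± 0.15 in KO (limma, adjusted p = 0.329) and Ptpn11, a phosphatase needed for signalling to Ras, -0.29 ± 0.14. For KO folinic acid minus WT folinic acid, the exchange factor Sos1 had 0.40 ± 0.16 (limma, adjusted p = 0.999) and the lipid kinase Pik3ca 0.34 ± 0.17. Stat3 had -0.22 ± 0.17 for folinic acid in WT.

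Of 27 feedback inhibitors and genes of receptor turnover other than Errfi1, 26 were measured and 0 passed. KO saline minus WT saline had 5 positive and 21 negative differences with a median of -0.10, and KO folinic acid minus WT folinic acid had 22 and 4 with a median of 0.14. Folinic acid minus saline in KO had 23 and 3 with a median of 0.18, and in WT it had 10 and 16 with a median of -0.03. The medians of all probe sets in these comparisons were between -0.02 and 0.01. Without KO folinic acid replicate 1, left out after the data had been seen, KO folinic acid minus WT folinic acid had 17 positive and 9 negative differences. Their median was 0.07. Folinic acid minus saline in KO then had 21 and 5 with a median of 0.19. Spred2, an inhibitor of Raf activation, had an interaction of 0.50 ± 0.18 (limma, adjusted p = 0.905), with 0.22 ± 0.13 in KO and -0.28 ± 0.13 in WT. Dusp6, the phosphatase of Erk, had an interaction of 0.60 ± 0.28 (limma, adjusted p = 0.905), and Spry1, a Sprouty protein, had 0.71 ± 0.29 for folinic acid in KO (limma, adjusted p = 0.326). Lrig1, which promotes turnover of the receptors, had 0.51 ± 0.25 for KO folinic acid minus WT folinic acid, Lrig3 had -0.46 ± 0.22 for folinic acid in KO and Zfp36l1 -0.26 ± 0.15 for folinic acid in WT.

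Of 20 genes known to be induced by EGF receptor signalling, 18 were measured and 0 passed. Folinic acid minus saline in KO had 14 positive and 4 negative differences with a median of 0.46, and 6 positive and 1 negative difference had an unadjusted p under 0.05 in limma, where 12.8% of all probe sets did. Without KO folinic acid replicate 1, left out after the data had been seen, the differences in KO were 13 positive and 5 negative with a median of 0.27, and 4 positive and 0 negative ones had an unadjusted p under 0.05, where 9.34% of all probe sets did. That array had a mean log2 signal of 10.5 over these 18 genes, against 9.83 to 10.1 on the other KO folinic acid arrays, and it was also the highest array in the macrophage markers and the handling genes given next, whose part in this difference was not tested. In WT folinic acid minus saline had 11 positive and 7 negative differences with a median of 0.03. The median interaction was 0.40, and the medians of KO minus WT were -0.15 under saline and 0.16 under folinic acid. Klf6 and Klf10, zinc-finger transcription factors, had 0.63 ± 0.17 (limma, adjusted p = 0.160) and 0.54 ± 0.16 (limma, adjusted p = 0.203) for folinic acid in KO. Phlda1 had 0.50 ± 0.17 there and an interaction of 0.71 ± 0.23 (limma, adjusted p = 0.905), Junb had 0.48 ± 0.26, and Myc went the other way with -0.77 ± 0.33 (limma, adjusted p = 0.347). Junb was named for its low p in KO folinic acid against WT folinic acid, and Myc for its low p in KO saline against WT saline.

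Genes that respond to the handling of tissue, some of which, such as Fos, Egr1 and Junb, are also EGF targets, were at another level in the same group. The mean log2 signal of 12 of them was 10.5 ± 0.42 in KO folinic acid (range 10.2 to 11.1), 9.97 ± 0.11 in KO saline (9.86 to 10.1), 9.99 ± 0.11 in WT folinic acid (9.93 to 10.1) and 10.02 ± 0.14 in WT saline uteri (9.85 to 10.2), as mean ± SD. Every KO folinic acid array was above every other array in this mean. KO folinic acid replicate 1 was the highest at 11.1. Without it, the median difference of folinic acid minus saline in KO over these genes was 0.28, against 0.49 with all arrays. The mean of 12 stroma markers was 12.91 ± 0.10 in KO folinic acid against 13.20 ± 0.15 in KO saline uteri, and 12.98 ± 0.14 in WT folinic acid against 13.18 ± 0.08 in WT saline uteri. In each genotype 5 of the 12 were lower under folinic acid with an unadjusted p under 0.05 in limma. The medians were -0.30 in KO and -0.24 in WT. Of all probe sets, 12.8% had such a p in KO and 2.71% in WT, in either direction. Without KO folinic acid replicate 1 the count in KO was 4 of 12, against 9.34% of all probe sets. Averaged over genotypes, the differences of all 12 were negative, and 0 of 12 passed over all probe sets in limma in any of these comparisons. Macrophage markers spread from 9.57 to 11.9 within KO folinic acid, and their median difference of folinic acid minus saline in KO was 0.63, or 0.13 without replicate 1, the highest of them. Adipocyte markers spread from 7.09 to 12.1 within WT saline and from 10.5 to 12.9 within WT folinic acid. The part of handling, of the cell make-up of the samples and of RNA quality in the differences of the members was not tested.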

How the data were processed

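The authors deposited 1 linear intensity signal per probe set and array, made with MAS5 per the submitters' processing notes, which give no version. Each array's mean after trimming 2% at both ends was between 500.002 and 500.003, and nothing further was scaled. Controls (64 of 45101) were left out, signals under 1 were raised to 1 (0.505% of values), log2 was taken, and probe sets at or above the median of the mean log2 signal were kept.

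Differences were fitted with limma 3.58.1 in R 4.3.3 to 4 group means (10 residual and 5.04 prior degrees of freedom, variance trend on signal), two-sided, with Benjamini-Hochberg adjustment within each comparison over 22519 probe sets and a threshold of 0.05. Probe sets below the filter come from the same fit without it. Correlations used 100000 permutations, two-sided (scipy 1.17.1). The fit was tested on simulated data with independent noise for each probe set and array. That simulation held no arrays that differ as a whole, so it does not show how the fit handles them. A gene is represented by its brightest probe set on average. From each pathway list the genes named have the smallest p, up to 2 in each pairwise comparison and the interaction. The value given for a gene is not always from the comparison it was named for. The members and lists were chosen with earlier results of these data known.

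Replicate numbers showed no pairing of the samples. Deviations of 19 pairs of arrays with the same number in different groups correlated between -0.337 and 0.354, with a median of 0.011. For 54 pairs with other numbers in different groups the range was -0.470 to 0.473, with a median of -0.025. The sample titles hold codes of unstated meaning, and a number in them occurs on 2 arrays in 2 cases. WT saline replicates 2 and 3 share 1 number, and WT folinic acid replicates 1 and 2 share another. The p-values therefore measure the spread between arrays, some of which may be related. For the block on the title number, the correlation within a number, estimated across probe sets, was 0.160. With arrays, their number limits the precision. The alternatives tried were quantile normalization, an offset, other filters, other variance settings, array weights, only the groups compared, a replicate block, a block on the title number, the actin ratio as a covariate and leaving out each array.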

Additional observations from a re-analysis of the deposited data

Results flagged for a closer look

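Of 44 groups of 4 arrays, 5 held an array far from the other 3, where chance gives about 1 in 20. In WT saline, replicate 2 was lowest for Ereg 1419431_at at 3.097, with the next array at 23.4. WT saline replicate 3 was lowest for Egfr 1424932_at at 616, with the next at 936, and highest for Egfr 1432647_at at 541, with the next at 167. It was the array with the highest actin ratio, 3.64. WT saline replicate 4 was lowest for Egfr 1460420_a_at at 523, with the next at 663. In KO folinic acid, replicate 1 was lowest for Egfr 1454313_at at 6.48, with the next at 60.2. Ereg and Egfr 1454313_at were below the filter.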

How the results depend on the processing

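For the 11 member probe sets above the filter, 1717 values under alternatives were computed, and 0 passed the adjusted threshold. The smallest adjusted p was 0.142 with an array left out and 0.325 otherwise, and 141 values had the other sign, all from differences of at most 0.22 in size. The number of probe sets of any gene past the threshold was 1 for KO saline against WT saline, with 2 after an offset of 16, 3 without the filter, 2 with only the groups compared and 1 to 2 with an array left out. It was 1 for KO folinic acid against WT folinic acid, with 2 after the offset and 2 without the filter, and 1 for KO against WT averaged over injections, with 2 after the offset, 3 without the filter and 1 to 2 with an array left out. For KO folinic acid against KO saline it was 0, with 2 without the filter and 0 to 662 with an array left out, the highest without KO folinic acid replicate 2. For folinic acid against saline averaged over genotypes it was 1, with 2 with the actin ratio as a covariate and 0 to 150 with an array left out, 150 without KO folinic acid replicate 2, 118 without WT folinic acid replicate 3 and 0 without WT folinic acid replicate 2, KO saline replicate 1 or KO saline replicate 3. The other counts stayed at 0. The cause of these changes was not tested. Of 15 member relations, 8 passed, 0 without the 2 farthest arrays and 0 to 8 with an array left out.

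With the replicate block, although the numbers showed no pairing of the samples, the counts past the adjusted threshold moved for none of the comparisons by over 1.5 times. In limma 2450 probe sets then had an unadjusted p under 0.05 for KO folinic acid against KO saline, where 2887 had it without the block. Of the 8 member differences with an unadjusted p under 0.05, 3 kept it under the block: Errfi1 1419816_s_at for folinic acid in WT and averaged over genotypes, and Egfr 1460420_a_at averaged over genotypes. The other 5 did not: Errfi1 1416129_at for KO saline against WT saline, for folinic acid in WT and for the interaction, and Egfr 1424932_at and Hbegf 1418349_at for folinic acid in KO. Groups of 3 and 4 arrays, and signals below the filter for 11 of the 22 probe sets, limit what could be detected.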
